A study of Homo sapiens with 12 samples.

Results

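To describe bone morphogenetic protein (BMP) signaling in CD133-sorted gastric cancer cells, 10 genes were chosen by name and followed across 6 cell populations. They are the ligand genes BMP2, BMP4 and BMP7, the receptor genes BMPR1A and BMPR2, the inhibitory SMAD gene SMAD6, and ID1, ID2, ID3 and ID4. All 10 were present among the 34595 genes with a value on the arrays. The populations were CD133+ and CD133- cells of KATO-III, SNU-216 and SNU-601, which are established human gastric cancer lines grown in RPMI1640 medium with calf serum and given no other treatment. Cells were stained with an antibody to the AC133 epitope of CD133, a membrane glycoprotein encoded by PROM1, and the brightest (CD133+) and dimmest (CD133-) cells of the same culture were sorted. Each population was hybridized to 2 Illumina HT-12 v3 BeadChip arrays, 12 arrays in all. The labels number these arrays as replicates and do not say whether they came from separate sorts, so the p-values within and between lines measure only how far the 2 arrays of a population lie apart, which may be technical. The error of the fit over the lines also holds the differences between lines in the change. The text describing the series gives another number for the line that the array labels call SNU-216, and the array labels were followed.

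BMP ligands are secreted dimers of the TGF-beta superfamily. They bind a complex of type I receptors, such as the product of BMPR1A, and type II receptors, such as the product of BMPR2, and the activated type I receptor phosphorylates SMAD1, SMAD5 and SMAD9, which enter the nucleus with SMAD4. The ID genes and SMAD6 are classical transcriptional targets: ID proteins are helix-loop-helix factors that lack a DNA-binding region and sequester E proteins such as TCF3 and TCF12, and SMAD6 feeds back to inhibit the pathway. In the stomach and intestine the pathway is known for its part in epithelial differentiation, and it is held back near stem cells by secreted antagonists such as noggin and gremlin.

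The promoters of SMAD6, ID1, ID2 and ID3 are shown because these are the target genes whose levels the results turn on. Each sequence holds the 250 bases before the annotated start, 5′ to 3′ on the coding strand, in RefSeq's GRCh38.p14. RefSeq's table matched 8 of the 10 genes, with BMP2 and BMP7 not matched. Capitals mark GTCTAGAC, the palindromic SMAD-binding element, and GGCGCC, a GC-rich palindrome that SMAD1 and SMAD5 are known to bind, each searched on both strands.
SMAD6 (chr15:66701986-66702235, plus strand): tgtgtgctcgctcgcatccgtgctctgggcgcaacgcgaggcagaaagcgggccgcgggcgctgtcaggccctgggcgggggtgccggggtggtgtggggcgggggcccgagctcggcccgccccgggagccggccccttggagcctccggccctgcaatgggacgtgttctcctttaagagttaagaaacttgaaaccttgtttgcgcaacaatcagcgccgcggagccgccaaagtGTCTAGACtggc
ID1 (chr20:31605039-31605288, plus strand): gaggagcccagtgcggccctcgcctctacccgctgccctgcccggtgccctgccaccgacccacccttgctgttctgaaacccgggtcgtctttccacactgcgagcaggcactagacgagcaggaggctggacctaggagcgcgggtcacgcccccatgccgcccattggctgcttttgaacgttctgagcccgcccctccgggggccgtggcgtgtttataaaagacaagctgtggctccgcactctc
ID2 (chr2:8681806-8682055, plus strand): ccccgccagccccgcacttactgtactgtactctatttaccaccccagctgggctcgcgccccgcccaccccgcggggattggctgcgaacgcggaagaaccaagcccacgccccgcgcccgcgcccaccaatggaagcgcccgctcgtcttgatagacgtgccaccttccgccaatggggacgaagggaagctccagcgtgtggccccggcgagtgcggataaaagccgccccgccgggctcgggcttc
ID3 (chr1:23559502-23559751, minus strand): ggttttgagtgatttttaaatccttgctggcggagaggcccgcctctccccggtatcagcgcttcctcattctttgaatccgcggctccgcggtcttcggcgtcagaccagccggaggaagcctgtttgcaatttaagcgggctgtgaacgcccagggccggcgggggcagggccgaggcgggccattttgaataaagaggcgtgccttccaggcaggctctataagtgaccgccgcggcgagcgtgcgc
GTCTAGAC stood in the SMAD6 window, beginning 12 bases before the start, and in 0.182% of all 35116 RefSeq windows of the same length. GGCGCC stood in none of the 4 windows printed, in that of BMPR2, in 1 of the 3 windows of BMP4, which has several annotated starts, and in 16.4% of all windows. These are letter matches only.

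The values are intensities on a linear scale from which a background had been subtracted, so that 32.1% of all values lay at or below 0. For tests, every value below 32.7, called the floor here, was replaced by 32.7 before the log2 transformation. A gene was tested where it exceeded the floor on at least 2 arrays, which held for 20147 genes and for 9 of the 10 chosen here. PROM1 was higher in CD133+ cells in every line, by 1.10 on the log2 scale in KATO-III, 2.02 in SNU-216 and 1.86 in SNU-601. All 6 rows of epithelial markers (EPCAM and its older symbol TACSTD1, KRT8, KRT18, KRT19 and CDH1) exceeded the floor on all 12 arrays. CDH1, which encodes E-cadherin, was lower in CD133+ cells of KATO-III by 0.70 and of SNU-601 by 0.25 and higher in SNU-216 by 0.30 (adjusted p = 6.83e-05, 0.0362 and 0.0109). KRT18 fell by 0.39 in SNU-216 (adjusted p = 0.0176), and TACSTD1 rose by 0.11 in KATO-III and fell by 0.13 in SNU-216 (adjusted p = 0.0402 and 0.0251). Of 7 markers of leukocytes, endothelium and fibroblasts, 5 exceeded it on no array, among them PTPRC and DCN, and the summed intensity of the 7 was 37.5 to 230 on CD133+ and 29.7 to 209 on CD133- arrays. COL1A1, a fibroblast collagen gene, exceeded it on 7 arrays. It read 139 to 196 in SNU-601, at least 3.85-fold over KATO-III and at least 5.13-fold over SNU-216. It was higher in CD133+ cells of KATO-III by at least 0.84. These are bounds without a p. Both KATO-III CD133- arrays (20.6 and 27.2) and most SNU-216 arrays (-15.5 to 33.4) lay under the floor. The part of these markers in the results below was not tested.

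The 3 ligand genes had 3 different line patterns. BMP4, whose product is a central morphogen of the gut, was the ligand measured in every population. In KATO-III its intensity was 6345 and 6222 on the CD133+ arrays and 5602 and 5964 on the CD133- arrays. In SNU-216 it was 2081 and 1889 on the CD133+ arrays and 3820 and 3523 on the CD133- arrays, and in SNU-601 it was 2024 and 2097 on the CD133+ arrays and 1387 and 1608 on the CD133- arrays. KATO-III thus held the 4 highest values, and the fractions were ordered in opposite ways in SNU-216 and SNU-601, with no overlap in either. BMP4 fell in SNU-216 CD133+ cells by 0.89 on the log2 scale (1.85-fold, standard error 0.0790, adjusted p = 7.89e-05 by limma) and rose in SNU-601 by 0.46 (1.38-fold, adjusted p = 0.00501), a call lost when SNU-601 was fitted alone (adjusted p = 0.141). In KATO-III the change was 0.12 (adjusted p = 0.283). In the order of means, no difference past the threshold was found between SNU-601 CD133+ and SNU-216 CD133+ cells (adjusted p = 0.640).

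BMP2, which acts through the same receptors, read 123 and 138 on the CD133+ arrays of KATO-III, against 484 and 384 on its CD133- arrays. On the SNU-601 arrays it was 281 and 324 in CD133+ and 466 and 509 in CD133- cells. SNU-216 gave values close to the floor, 50.2 and 26.0 in CD133+ and 43.8 and 41.7 in CD133- cells. BMP2 was therefore lower in CD133+ cells on all arrays of KATO-III and SNU-601, while the fractions of SNU-216 overlapped. The log2 change was -1.73 in KATO-III (3.32-fold lower, standard error 0.204, adjusted p = 0.000185 by limma). In SNU-601 it was -0.69 and just missed the threshold (adjusted p = 0.0513), and it passed with a floor of 100 (adjusted p = 0.00299). In SNU-216 it was -0.08 (adjusted p = 0.905).

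BMP7, a ligand best known from kidney and skeletal development, exceeded the floor only in SNU-601. There it was 485 and 406 on the CD133+ and 360 and 347 on the CD133- arrays, and the log2 change of 0.33 did not pass the threshold (adjusted p = 0.114), although it did with a floor of 100 (adjusted p = 0.0151) and without the mean-variance trend (adjusted p = 0.0387). The 8 arrays of KATO-III and SNU-216 lay between -16.4 and 24.5. Set to the floor, they have no spread and enter the shared error, so the p-values of BMP7 in SNU-601 may be too small. BMP7 was at least 10.8-fold higher in SNU-601 CD133- cells than in any population of the other lines, where the floor is taken as the level of the dim population. No p is given for this, since BMP7 passed the filter on low values through SNU-601 alone.

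**Figure D1:**
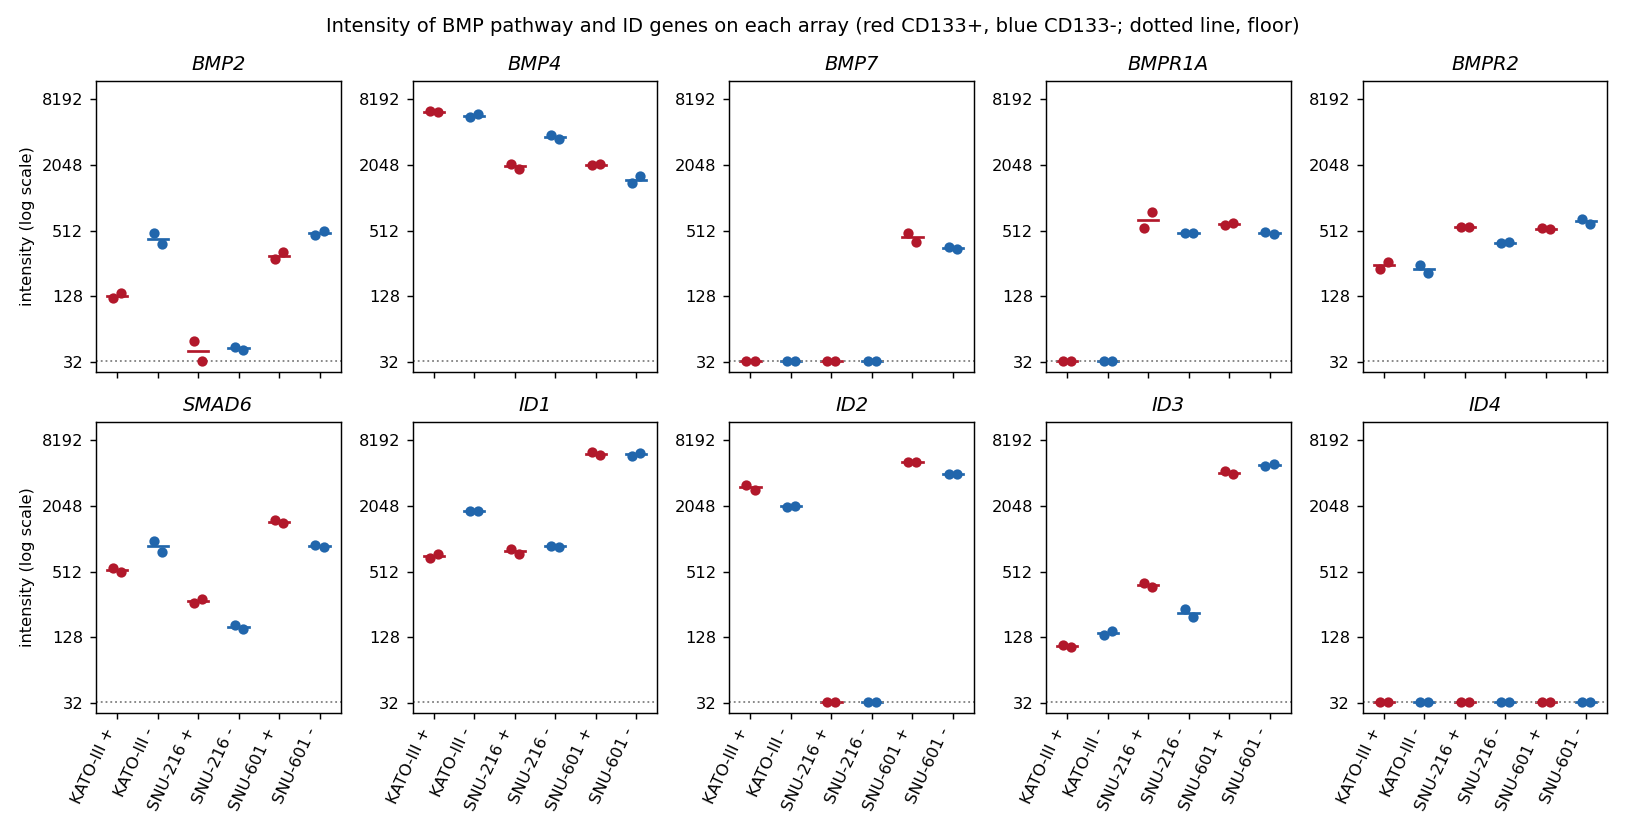
Intensity (log2-spaced axis) of the 10 genes on each of the 12 arrays, by population, with CD133+ arrays in red, CD133- arrays in blue, short lines at the mean of the log2 values, and the floor of 32.7 dotted. BMPR1A lies on the floor in KATO-III, ID2 in SNU-216, BMP7 in KATO-III and SNU-216, and ID4 everywhere.

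The receptor genes separated the lines more than the fractions. BMPR1A, which encodes a type I receptor for BMP2 and BMP4, was not above the floor in KATO-III, where the 4 arrays gave 2.84, -2.87, -5.29 and -7.22. In SNU-216 it was 544 and 756 on the CD133+ and 486 and 484 on the CD133- arrays. In SNU-601 it was 574 and 607 on the CD133+ and 492 and 472 on the CD133- arrays. The CD133+ arrays thus lay above the CD133- arrays in each of these lines, although the changes of 0.40 in SNU-216 (adjusted p = 0.0617) and 0.29 in SNU-601 (adjusted p = 0.215) did not pass the threshold. The KATO-III arrays, set to the floor, have no spread and enter the shared error, so the p-values of BMPR1A may be too small. Without the SNU-216 CD133+ array that read 544 the SNU-216 change was 0.64 (adjusted p = 0.00426), and over all arrays left out in turn it lay between 0.17 and 0.64 (adjusted p up to 0.299), a lone array being assumed to vary like the other populations. The lower of the other 4 populations, SNU-601 CD133-, was at least 14.7-fold above KATO-III, and SNU-216 and SNU-601 differed by 0.06 (adjusted p = 0.640).

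BMPR2, the type II receptor, was measured on all arrays. KATO-III gave 229 and 264 for CD133+ against 246 and 210 for CD133- cells, with 553 and 547 against 394 and 401 in SNU-216, and 540 and 525 against 650 and 594 in SNU-601. KATO-III was the lowest line, 1.98-fold below SNU-216 and 2.43-fold below SNU-601 (adjusted p = 1.27e-06 and 2.60e-07). The fractions overlapped in KATO-III, CD133+ cells were higher in SNU-216 and lower in SNU-601. Only the change in SNU-216, of 0.47, passed the threshold (1.38-fold, standard error 0.0985, adjusted p = 0.00682), against 0.11 in KATO-III and -0.22 in SNU-601 (adjusted p = 0.432 and 0.178).

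Of the type I receptors outside the 10 genes, BMPR1B and ACVRL1 exceeded the floor on no array. ACVR1, which encodes a type I receptor used by BMP7 among others, was measured on all 12 and was higher in CD133+ cells over the lines by 0.35 (standard error 0.0805, adjusted p = 0.0350). In KATO-III, where BMPR1A was not detected, the CD133+ mean of ACVR1 was 1359 ± 128 (SD, n = 2 arrays) and the CD133- mean 1020 ± 35.6. The ACVR1 means were 853 ± 11.8 and 594 ± 25.5 in SNU-216, and 1336 ± 64.0 and 1232 ± 94.4 in SNU-601. The change of ACVR1 was 0.41 in KATO-III and 0.52 in SNU-216 (adjusted p = 0.00322 and 0.00134) and 0.12 in SNU-601 (adjusted p = 0.397). With the replicate block, with population means or with the population as a random block, no gene of the pathway list was called over the lines, where 2, 0 and 1 of all 20147 genes were.

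The feedback inhibitor SMAD6 changed in all 3 lines, in opposite directions. KATO-III gave 557 and 509 for CD133+ against 985 and 774 for CD133- cells. In SNU-216 it was 266 and 290 against 167 and 152, and in SNU-601 it was 1504 and 1433 against 889 and 854. The fractions did not overlap in any line, and CD133+ cells were the lower ones in KATO-III and the higher ones in SNU-216 and SNU-601. The log2 change was -0.71 in KATO-III, 0.80 in SNU-216 and 0.75 in SNU-601 (standard error 0.113 each, adjusted p = 0.00102, 0.000874 and 0.00275 by limma). Fitted on the 4 arrays of a line alone, the adjusted p was 0.0765, 0.0573 and 0.0521 in that order. SMAD6 was highest in SNU-601 CD133+ cells and lowest in SNU-216 CD133- cells, and of the neighbors in its order, KATO-III CD133- and SNU-601 CD133- cells did not differ (fold 1.00, adjusted p = 1).

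Among the ID genes, SNU-601, which was also the highest line for COL1A1, was the highest line for ID1, ID2 and ID3. ID1 was 6327 and 5997 on its CD133+ and 5887 and 6212 on its CD133- arrays, which overlap. In SNU-216 ID1 was 823 and 747 in CD133+ and 878 and 868 in CD133- cells. In KATO-III it was 678 and 737 in CD133+ and 1821 and 1848 in CD133- cells, so that the fractions of this line were the ones set far apart. ID1 fell in KATO-III CD133+ cells by 1.38 on the log2 scale (2.60-fold, standard error 0.0621, adjusted p = 1.26e-06). The changes of -0.15 in SNU-216 and 0.03 in SNU-601 did not pass the threshold (adjusted p = 0.103 and 0.909). At the bottom of the order stood SNU-216 CD133-, SNU-216 CD133+ and KATO-III CD133+ cells, whose neighboring pairs did not pass the threshold (adjusted p = 0.103 and 0.0660), whereas the highest and the lowest of these 3 differed by 0.30 (adjusted p = 0.00216).

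ID2 was the ID gene that rose in CD133+ cells wherever it was detected. In KATO-III it was 3194 and 2867 on the CD133+ and 2009 and 2053 on the CD133- arrays, and in SNU-601 it was 5134 and 5182 on the CD133+ and 4047 and 4042 on the CD133- arrays. In SNU-216 it stayed under the floor, at 11.1 and 31.8 in CD133+ and 1.63 and 4.60 in CD133- cells. The CD133+ arrays of KATO-III and SNU-601 lay above the CD133- arrays without overlap, by 0.58 in KATO-III (1.49-fold, standard error 0.0581, adjusted p = 7.85e-05) and 0.35 in SNU-601 (1.28-fold, adjusted p = 0.00443). Arrays at the floor have no spread and enter the shared error of ID2. With a floor of 16, where the SNU-216 values differ from one another, the adjusted p was 0.102 in KATO-III and 0.450 in SNU-601. Against SNU-216, ID2 was at least 62.1-fold higher in KATO-III CD133- and at least 158-fold higher in SNU-601 CD133+ cells.

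The row of ID2B, a pseudogene that closely resembles ID2, lay above the floor on all arrays. In SNU-216, where ID2 was not detected, the CD133+ mean of ID2B was 146 ± 4.43 (SD, n = 2 arrays) and the CD133- mean 262 ± 136. The ID2B means were 160 ± 13.0 and 198 ± 24.7 in KATO-III, and in SNU-601 145 ± 10.5 and 264 ± 6.75. ID2B was thus lower on average in the fraction in which ID2 was higher, with a log2 change over the lines of -0.63 that did not pass the threshold (adjusted p = 0.0636).

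ID3 changed in opposite directions in KATO-III and SNU-216. On the KATO-III arrays it was 109 and 104 in CD133+ and 135 and 146 in CD133- cells, and on the SNU-216 arrays 406 and 374 in CD133+ and 231 and 195 in CD133- cells. On the SNU-601 arrays it was 4256 and 3990 in CD133+ and 4719 and 4913 in CD133- cells. No line had overlapping fractions, and SNU-601 lay an order of magnitude above the others. The log2 change was -0.40 in KATO-III (1.32-fold lower, adjusted p = 0.00762) and 0.87 in SNU-216 (1.83-fold higher, standard error 0.0914, adjusted p = 0.000183). It was -0.22 in SNU-601 (adjusted p = 0.142). CDH1 moved in the same directions in the 3 lines. With a line fitted alone, the adjusted p of ID3 was 0.0931 in KATO-III and 0.0608 in SNU-216. The KATO-III call was lost without KATO-III CD133+ replicate 2 (adjusted p = 0.0510) and without KATO-III CD133- replicate 2 (adjusted p = 0.0538). ID3 was 36.4-fold lower in KATO-III and 15.5-fold lower in SNU-216 than in SNU-601 (adjusted p = 1.59e-11 and 4.12e-11). ID4 exceeded the floor on no array, with values between -34.2 and -4.98, and was not tested.

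**Figure D2:**
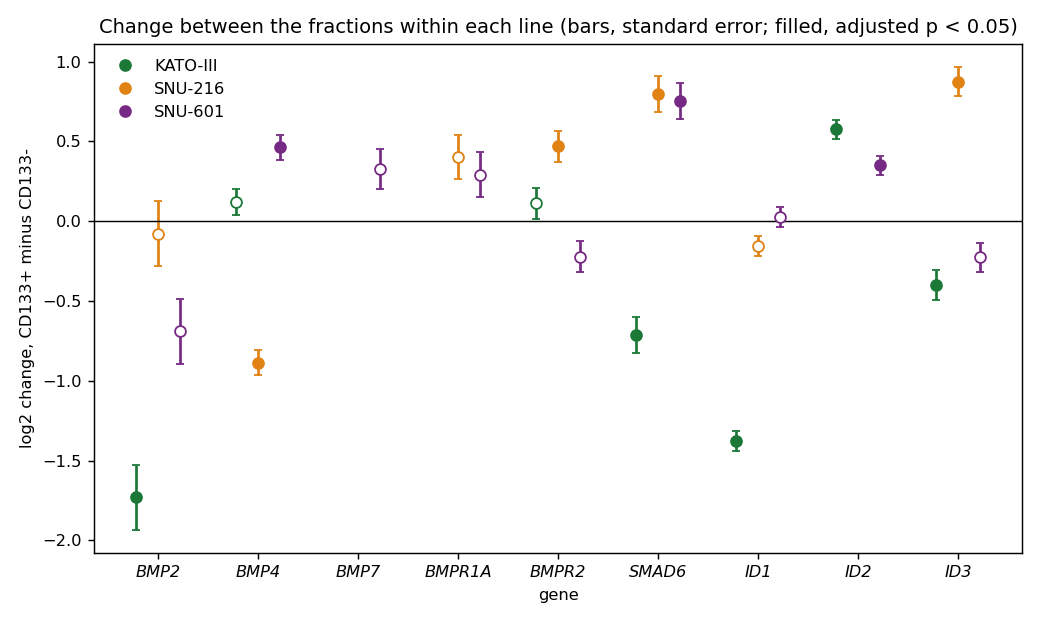
Log2 change between CD133+ and CD133- cells (y axis) for 9 genes (x axis) within each line, with the standard error of limma as bars and filled points where the adjusted p was under 0.05. Genes at the floor on all arrays of a line are left out. SMAD6 and ID3 lie below 0 in KATO-III and above 0 in SNU-216, and BMP4 lies on opposite sides of 0 in SNU-216 and SNU-601.

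No gene was called in the same direction in all 3 lines. The log2 change of BMP2 was below 0 in each line, though only -0.08 in SNU-216, where it lay close to the floor. Fitted over all arrays with the line as a block, limma found 0 of the 9 tested genes called, where 4.73% of all tested genes were called (2.62% higher and 2.11% lower), and 3 (ID1, ID2 and BMP2) had an unadjusted p under 0.05, as did 24.5% of all tested genes. The changes were -0.50 for ID1 (standard error 0.192, adjusted p = 0.145), 0.31 for ID2 (standard error 0.0924, adjusted p = 0.0758) and -0.83 for BMP2 (standard error 0.238, adjusted p = 0.0667). With an offset of 100 in place of the floor, limma called ID2 and BMP2 and 5.83% of all tested genes. The study chose genes by a signal-to-noise ratio (SNR) whose formula is not given in the sources used here. Taken as the difference of the fraction means over the sum of their SDs, it was between -0.516 for ID4 and 0.173 for ID2. ID4 was under the floor on every array, so its ratio rests on background values. The lowest SNR of a detected gene was -0.482 for BMP2. None of the 10 genes passed 1 or -1, thresholds that 0.558% and 0.402% of all genes passed. With each line centred on its own mean, the SNR of ID2 was 1.27 and that of BMP2 was -1.13, and 3.50% of all genes passed 1 and 3.86% passed -1.

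Within the lines, limma called 1 gene higher (ID2) and 4 lower (BMP2, SMAD6, ID1 and ID3) in KATO-III CD133+ cells, 5 of 9 tested, where 39.3% of all tested genes were called (18.7% higher and 20.6% lower). In SNU-216 it called 3 higher (BMPR2, SMAD6 and ID3) and 1 lower (BMP4), 4 of 9 against 28.6% of all (14.6% higher and 14.0% lower). In SNU-601 it called 3 higher (BMP4, SMAD6 and ID2) and 0 lower, 3 of 9 against 16.4% of all (8.59% higher and 7.78% lower). Over the genes above the floor in the line, the median log2 change was -0.40 for 7 genes in KATO-III, 0.40 for 7 in SNU-216 and 0.29 for 9 in SNU-601, beside -0.02, -0.01 and -0.01 for all such genes. By the test of line and fraction together, 7 of the 9 genes (not BMP7 and BMPR1A) changed unequally in the 3 lines, beside 44.4% of all tested genes. This count rests in part on the floor. ID2, whose change in SNU-216 was set to 0 by the floor, was not called with a floor of 16 (adjusted p = 0.866) or an offset of 100 (0.0800), BMP7 was called with a floor of 100 (0.0408) and the offset (0.00356), and BMPR1A was called without SNU-216 CD133+ replicate 1 (0.0146). The level differed between the lines for 72.3% of all tested genes. Among genes above the floor on all 12 arrays it did so for the 5 chosen ones (BMP4, BMPR2, SMAD6, ID1 and ID3) and for 86.4% of all, and it did so for BMP2. ID2, BMP7 and BMPR1A lay at the floor in at least 1 line and passed the filter through the others, so that their levels had to differ between lines. SMAD6 was the gene called in every line. Of 40 pairs of neighboring populations in the genes' orders of level, 23 differed, pairs with both populations at the floor left out, and in 3 of the 23 (of ID2, BMP7 and BMPR1A) the lower population lay at the floor. Within a line the pair is the contrast of fractions given above. Between lines, the contrasts called, of all tested genes, 57.5% for KATO-III CD133+ against SNU-216 CD133+, 60.0% for KATO-III CD133+ against SNU-216 CD133-, 55.2% for KATO-III CD133+ against SNU-601 CD133+, 56.8% for KATO-III CD133+ against SNU-601 CD133- and 52.4% for KATO-III CD133- against SNU-216 CD133-. They called 46.9% for KATO-III CD133- against SNU-601 CD133+, 47.8% for KATO-III CD133- against SNU-601 CD133-, 50.6% for SNU-216 CD133+ against SNU-601 CD133+, 51.3% for SNU-216 CD133+ against SNU-601 CD133-, 51.5% for SNU-216 CD133- against SNU-601 CD133+ and 52.6% for SNU-216 CD133- against SNU-601 CD133-.

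The other genes of the pathway were 55 ligands, receptors and coreceptors, SMADs and SMURFs, antagonists, targets, E proteins and ID2B, of which 33 were tested and 19 exceeded the floor on no array. Over the lines 2 rose in CD133+ cells, ACVR1 and CRIM1, and none fell, where 4.73% of all tested genes were called. CRIM1, a transmembrane protein that binds BMPs, was higher by 0.49 (standard error 0.0986, adjusted p = 0.0243). It was higher by 0.47 in KATO-III, 0.29 in SNU-216 and 0.71 in SNU-601, and passed the threshold in KATO-III and SNU-601 (adjusted p = 0.00668 and 0.00259), not in SNU-216 (adjusted p = 0.0679). Without any 1 of the 4 KATO-III arrays, no gene of the list was called over the lines. The same held with population means or with the population as a random block.

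**Figure D3:**
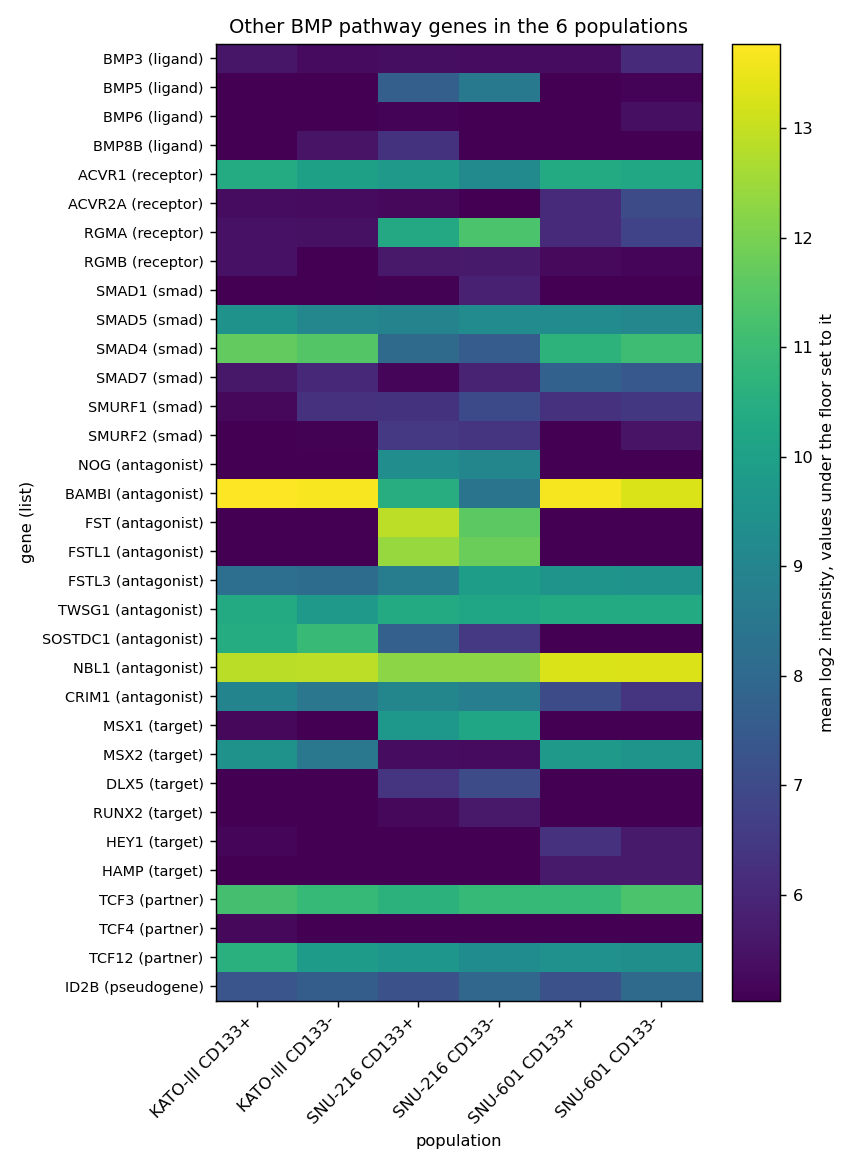
Mean log2 intensity of the 33 tested genes of the wider pathway list (rows) in the 6 populations (columns), with values under the floor set to it. Colors are to be compared along a row, since the rows are different probes. NOG, FST and the target DLX5 are above the floor in SNU-216 alone, and the target MSX1 is highest there. SMAD4, BAMBI and the target MSX2 are lowest there.

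In KATO-III, 7 of the 33 genes rose and 2 fell in CD133+ cells, with 39.3% of all tested genes called. The largest increases were those of MSX2, a homeobox target of BMP signaling (0.95, adjusted p = 0.00549), TCF12, which encodes an E protein (0.72, adjusted p = 1.49e-05) and TWSG1, an extracellular BMP modulator (0.64, adjusted p = 5.61e-05). There the CD133+ mean of MSX2 was 711 ± 18.9 (SD, n = 2 arrays) and its CD133- mean 369 ± 36.3. This target thus moved in the direction of ID2 and opposite to SMAD6, ID1 and ID3. SMURF1, a ubiquitin ligase of receptor-activated SMADs, fell by 1.05 (adjusted p = 0.0105), from 80.7 ± 34.2 to 37.4 ± 6.19, close to the floor. SOSTDC1, a secreted antagonist, fell by 0.48 (adjusted p = 0.00945).

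In SNU-216, 8 genes rose and 6 fell, with 28.6% of all tested genes called. BAMBI, a pseudoreceptor that inhibits TGF-beta and BMP signals and is itself a BMP target, rose by 2.08 (4.22-fold, standard error 0.0837, adjusted p = 1.42e-06), from 341 ± 38.4 in CD133- to 1433 ± 72.5 in CD133+ cells. FST, which encodes follistatin, rose by 1.33 (adjusted p = 2.03e-05), from 3016 ± 63.9 to 7582 ± 459. BMP8B rose by at least 1.27, from under the floor (21.2 and 13.0) to 80.6 ± 25.4. No p is given for BMP8B, since both CD133- arrays lay under the floor and have no spread. Of 9 tested antagonists, 4 rose and 1 fell in this line, where 14.6% of all tested genes were called higher and 14.0% lower. FST and FSTL1, both among those that rose, exceeded the floor in SNU-216 alone and were tested through this line only. FSTL3, related to follistatin, fell by 1.25 (adjusted p = 1.50e-05), and the ligand BMP5 fell by 0.89 (adjusted p = 0.000697), from 382 ± 33.0 to 206 ± 7.23. FST lay under the floor on all arrays of KATO-III and SNU-601, BMP5 on all of KATO-III and BMP8B on all of SNU-601. Such arrays have no spread and enter the shared error, so the p-values of FST and BMP5 may be too small. SMAD1 fell by at least 0.76, with a mean of 56.7 ± 2.51 in CD133- cells and 1 of 2 CD133+ arrays above the floor. All arrays of the other lines lay under the floor. No p is given for SMAD1, since it passed the filter on low values chiefly through its CD133- arrays.

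In SNU-601, 3 genes rose and 3 fell, with 16.4% of all tested genes called. CRIM1, HEY1 (0.61, adjusted p = 0.0277) and BAMBI (0.36, adjusted p = 0.0187) rose. ACVR2A, which encodes a type II receptor, fell by 0.97 (adjusted p = 0.00256), from 132 ± 9.11 to 67.6 ± 9.40. TCF3 fell by 0.41 (adjusted p = 0.0138). SMURF2 fell by at least 0.47, from 47.4 and 43.2 on the CD133- arrays to 23.4 and 28.8 on the CD133+ arrays. No p is given for SMURF2, since both CD133+ arrays lay under the floor and have no spread. Over the genes of the list above the floor, the median log2 change was 0.16 for 24 genes in KATO-III, 0.04 for 30 in SNU-216 and 0.00 for 23 in SNU-601.

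BMPR1B, ACVRL1, COL1A1, FSTL1, SMAD4, NOG, MSX1 and DLX5 were singled out after their values were seen. SMAD4, the partner shared by the BMP and TGF-beta SMADs, had a CD133+ mean of 265 ± 18.3 (SD, n = 2 arrays) and a CD133- mean of 191 ± 36.5 in SNU-216. It was 3276 ± 183 and 2759 ± 78.7 in KATO-III, and 1627 ± 37.7 and 2147 ± 243 in SNU-601. SNU-216 was 13.4-fold below KATO-III and 8.33-fold below SNU-601 (adjusted p = 4.83e-10 and 2.02e-09), and such contrasts called 62.0% of all tested genes for KATO-III against SNU-216, 58.6% for KATO-III against SNU-601 and 56.5% for SNU-216 against SNU-601. NOG, which encodes noggin, was 634 ± 47.8 and 530 ± 34.7 in SNU-216 and under the floor on all arrays of the other lines. The listed targets went both ways in SNU-216. MSX1, at 798 to 1209, and DLX5, at 75.4 to 143, were highest there, whereas MSX2, at 29.3 to 47.9, was lowest there.

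**Figure D4:**
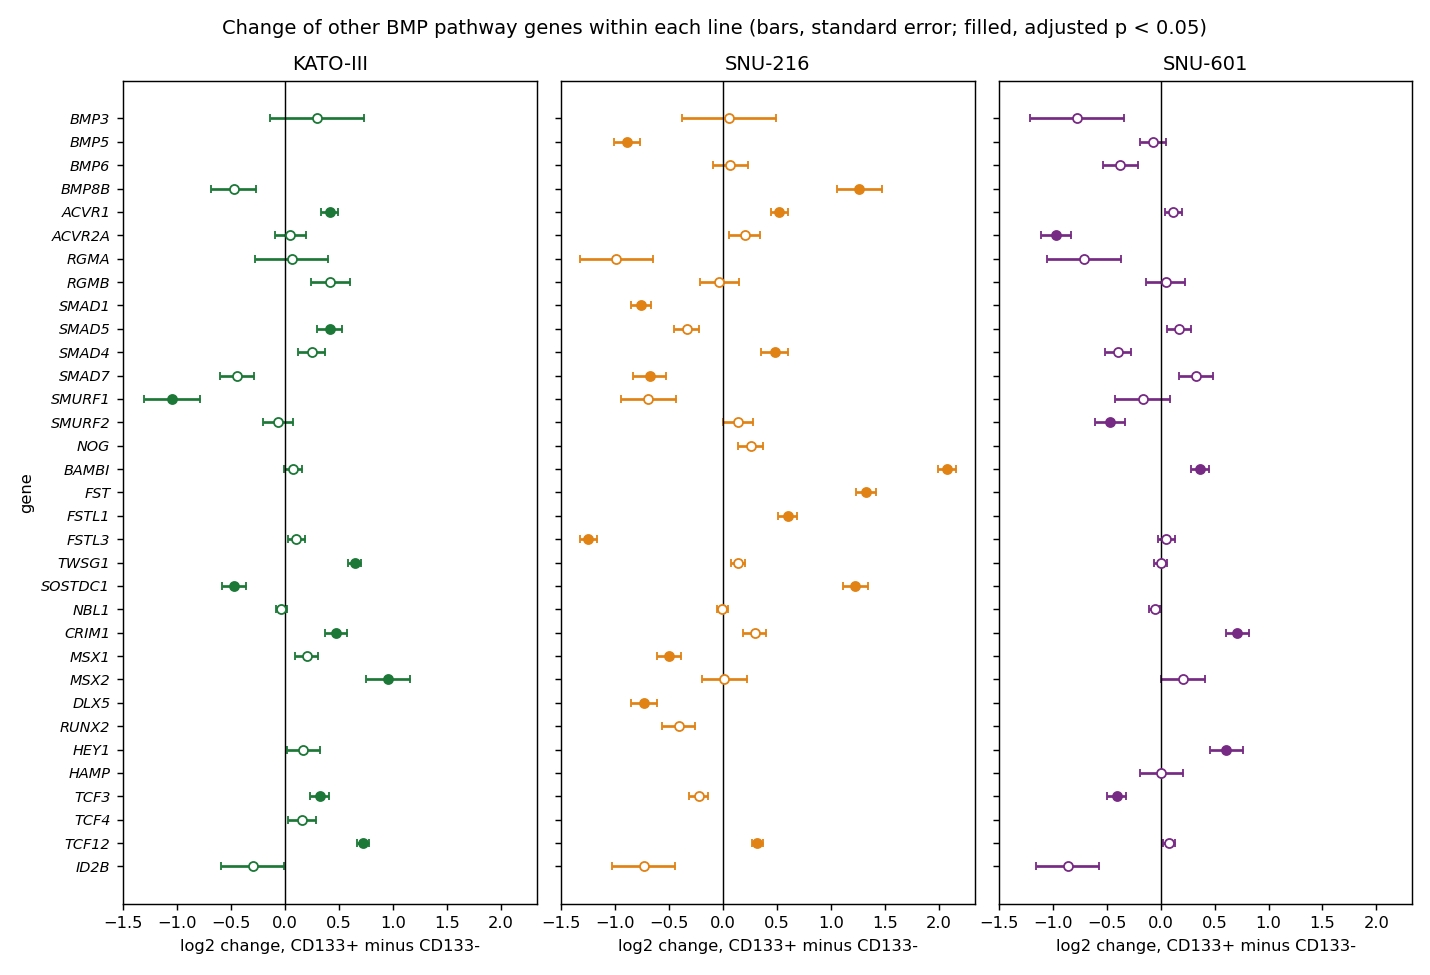
Log2 change between CD133+ and CD133- cells (x axis) of the 33 tested genes of the wider list (y axis) in each line, with standard errors of limma as bars and filled points where the adjusted p was under 0.05. BAMBI in SNU-216, at 2.08, is the point farthest from 0.

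The genes whose pattern over the 12 arrays was most like that of a chosen gene were sought among 11673 others above the floor on all arrays, for the 5 chosen genes that met the same condition. They were SLC45A4, FOXJ2 and GGA2 for ID1 (Pearson's r of log2 intensity 0.994, 0.994 and 0.993) and SLC15A4, CAPRIN2 and BCKDHB for ID3 (0.997, 0.994 and 0.993). For BMP4 they were NANOS3, DCPS and PSMB8 (0.988, 0.987 and 0.984), for SMAD6 GALC, TSPAN9 and GPT2 (0.987, 0.980 and 0.979), and for BMPR2 DCP2, CCDC6 and PCMT1 (0.989, 0.984 and 0.981). The 12 points fall into 3 lines, so these values mostly describe likeness of the lines' levels.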

How the data were processed

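Intensities of 12 Illumina HT-12 v3 arrays were deposited by the authors as a table with a row per gene symbol. The methods state that the profiles were quantile-normalized, and the processing notes name BeadStudio. A background had been subtracted, as the values show, but neither its estimation nor the way in which several probes became a single row is given in the sources used here. Of 34688 rows, 93 were empty. The deposited intensities were floored at 32.7, the size of the value at percentile 1 of all values, and log2-transformed. Values at the floor have no order. Differences were tested by limma 3.58.1 in R 4.3.3 with a mean-variance trend and Benjamini-Hochberg adjustment over 20147 genes at 0.05. The comparison over the lines had cell line as a block. Changes within lines, their difference between lines (F-test), levels between lines and pairs of populations came from a model with a mean per population. The SNR was taken on deposited intensities, since neither its scale nor its formula is named in the methods. Array medians lay between 26.0 and 27.1, and the number of arrays limits the precision.

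The genes and lists were chosen with earlier results of these data known. All 10 genes are named, as are list genes called over the lines with the same sign in every line, the 3 called genes with the largest change per line and direction, ID2B and PROM1. The most similar genes were the 3 with the highest r. Alternatives covered floors of 16 and 100, an offset of 100, normalization, the filter, the trend, the replicate block, averaged arrays, a random block, single lines and leaving out each array. The fits were first tested on simulated data. Other calculations used Python 3.11.15, numpy 2.4.6 and pandas 2.3.3, and figures matplotlib 3.10.9.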

Additional observations from a re-analysis of the deposited data

Results flagged for a closer look

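The change between CD133+ and CD133- cells differed between the 3 lines for 7 genes, tested as the interaction of line and fraction by limma over all 20147 genes. The adjusted p was 1.46e-05 for ID1, which fell by 1.38 on the log2 scale in KATO-III and moved by -0.15 in SNU-216 and 0.03 in SNU-601. It was 6.86e-05 for BMP4, which fell in SNU-216 and rose in SNU-601. It was 0.00015 for SMAD6 and 0.000158 for ID3, both lower in KATO-III and higher in SNU-216 CD133+ cells. It was 0.00146 for ID2, which was under the floor in SNU-216, 0.00426 for BMP2 and 0.00955 for BMPR2. The value for ID2 was 0.866 with a floor of 16 and 0.0800 with an offset of 100. Of all tested genes, 44.4% differed between the lines in this test.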

How the results depend on the processing

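Of 1034 values of single genes under alternative settings, 993 kept their side of the threshold and, for log2 changes, their direction. A turn of sign was not counted for the SNR. With arrays left out in turn, the SNR of ID1 lay between -0.233 and 0.0597, and those of ID3, BMP4, BMP7, SMAD6 and BMPR2 also crossed 0. Counts of called chosen genes moved as follows: over the lines to 2 with an offset of 100 (5.83% of all tested genes called), in KATO-III to 3 with genes above the floor on all 12 arrays (53.9%) and to 3 with the line fitted alone (26.1%), in SNU-216 to 2 with the line alone (12.3%), and in SNU-601 to 5 with a floor of 100 (26.8%) and to 1 with the line alone (1.04%). With the line alone, the lost calls were ID3 and SMAD6 in KATO-III and in SNU-216, and BMP4 and SMAD6 in SNU-601. Restricting the test to genes above the floor on all 12 arrays left 5 chosen genes, so 5 differed in level between the lines (86.4% of all such genes) and 15 pairs of neighboring populations differed. The SNR of 2 genes passed a threshold with each line centred on its mean, as did 3.50% (above 1) and 3.86% (below -1) of all genes. Counts of the wider pathway list over the lines moved to 4 with a floor of 100 (8.23% of all tested genes called), 1 with no filter (1.23%), 5 with genes above the floor on all 12 arrays (10.6%), and 0 with the replicate block, with population means or with the population as a random block. In SNU-216 that count was 8 with genes above the floor on all arrays (44.3%), and in SNU-601 it was 2 with no filter (6.84%) and 0 with the line alone. The log2 change of BMP7 over the lines was -0.11 with an offset of 100. Where not stated, the cause was not tested.

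Without each array in turn, the counts of chosen genes lay between 0 and 1 over the lines, where BMP2 was called without SNU-216 CD133+ replicate 1 (2.20% of all tested genes called), between 4 and 5 in KATO-III, 4 and 6 in SNU-216 and 3 and 5 in SNU-601. In SNU-601 the count reached 5 without SNU-216 CD133+ replicate 1, where BMP2 (adjusted p = 0.0203) and BMPR1A (adjusted p = 0.0496) were called as well and 15.2% of all tested genes were called. In SNU-216 it reached 6 without the same array, where ID1 (adjusted p = 0.0499) and BMPR1A were called as well and 21.6% of all tested genes were called. Those of the wider list lay between 0 and 3 over the lines, with 0 without any of the 4 KATO-III arrays, and between 3 and 8 in SNU-601, with 3 without SNU-601 CD133+ replicate 1, CD133+ replicate 2 or CD133- replicate 1. Changes that were not called turned sign: ID3 over the lines between -0.0456 and 0.16, BMP4 over the lines between -0.20 and 0.0148, BMPR2 in KATO-III between -0.0016 and 0.23, BMP2 in SNU-216 between -0.39 and 0.23, and ID1 in SNU-601 between -0.0122 and 0.0653. Without SNU-216 CD133+ replicate 1, the SNU-601 changes of BMP2 and BMPR1A stayed at -0.69 and 0.29. That array belongs to neither SNU-601 fraction and enters these tests through the shared error.

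The replicate numbers were checked for pairing: deviations of same-numbered arrays of a line from their population means correlated across genes with r between -0.00648 and 0.0261. No pairing was thus seen. With 2 arrays per population the check cannot tell whether same-numbered arrays came from the same sort or culture. With the replicate block, the chosen genes called were 0 over the lines, 5 in KATO-III, 4 in SNU-216 and 3 in SNU-601, where of all tested genes 2, 7260, 5153 and 2375 were called, against 953, 7917, 5762 and 3298 without it. BMP2 in SNU-216 lay close to the floor, with 1 of 4 arrays under it, where a change is little resolved from background.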
